A study of Citrus trifoliata and Citrus junos with 20 samples.

Results

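The MIR171 family of citrus roots was followed here through 3 of the 100 miRNAs listed in the small RNA tables, csi-miR171a, csi-miR171b and csi-miR479. They were chosen by name among the known miRNAs, where the deposited table assigns csi-miR171a to MIR171_1 and both csi-miR171b and csi-miR479 to MIR171_2. csi-miRN05, a predicted miRNA also assigned to MIR171_1, was not made a member and is described apart. The rule used no measured value, but earlier results of these data were known when the members were chosen. Seedlings of 2 rootstocks, Pt (trifoliate orange, Poncirus trifoliata, sensitive to alkalinity) and Cj (Ziyang xiangcheng, Citrus junos, tolerant of alkalinity), were grown in hydroponic solution for 8 weeks with the solution held at pH 6.5, which served as normal, or raised to pH 8.0 or pH 9.5. Small RNA was sequenced from the roots in 3 libraries per group, and each library pooled 3 seedlings. The 6 groups are thus Pt and then Cj, each at the 3 pH values, all raised from seed, and no allele or agent other than rootstock and pH is named. The study asked how root small RNAs of the sensitive and the tolerant rootstock respond to alkaline solution.

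MIR171 is an old plant miRNA family. In Arabidopsis it guides the cleavage of transcripts for Scarecrow-like proteins of the GRAS family, transcription factors that keep meristem cells undifferentiated and act in shoot branching and root growth. A plant miRNA precursor folds into a hairpin and is cut into a short duplex, of which 1 strand is usually loaded into an Argonaute protein while the other, the opposite strand, is mostly degraded. Reads of both strands can therefore be counted from 1 precursor.

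The mature sequences are shown because they decide which of the 3 miRNAs can be read as separate. The capitals mark the seed, bases 2 to 8 from the 5′ end.
csi-miR171a: uUGAGCCGcgccaauaucac
csi-miR171b: cGAGCCGAaucaauaucacuc
csi-miR479: uGUGAUAUugguucggcucauc
The 3 seeds differ from each other, and 0 of the other listed miRNAs share any of them. Those of csi-miR171a and csi-miR171b hold the same core of bases, moved by 1 base. csi-miR171a (20 nt) and csi-miR171b (21 nt) were identical at 15 of 19 aligned bases with a shift of 1 base. csi-miR479 (22 nt) resembled neither in the sense direction. It was complementary to csi-miR171b at 17 of 20 aligned bases and to csi-miR171a at 17 of 20.

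The deposited hairpins placed csi-miR479 and csi-miR171b on opposite arms of 1 precursor. The hairpin deposited for csi-miR479 is printed here with both mature sequences in capitals, csi-miR479 at bases 20 to 41 and csi-miR171b at bases 97 to 117.
csi-miR479 hairpin: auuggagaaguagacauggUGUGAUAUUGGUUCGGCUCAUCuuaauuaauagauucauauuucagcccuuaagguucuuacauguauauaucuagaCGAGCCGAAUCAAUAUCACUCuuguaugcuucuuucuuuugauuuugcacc
The hairpin deposited for csi-miR171b shares 140 bases with it and holds both sequences too. In the predicted fold of the 147-nt csi-miR479 hairpin, 18 of the 22 bases of csi-miR479 paired with csi-miR171b, 1 of them as a G-U pair. The reads of csi-miR479 and csi-miR171b can thus come from both strands of 1 duplex and are not taken as independent measures of 2 genes. Whether other places in the genome carry either sequence was not tested.

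csi-miR171a came from a different hairpin of 97 nt, shown with the mature sequence in capitals at bases 70 to 89 of the 3′ arm.
csi-miR171a hairpin: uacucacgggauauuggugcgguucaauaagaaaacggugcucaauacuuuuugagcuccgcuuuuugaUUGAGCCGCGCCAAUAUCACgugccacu
The same 20 bases also occur in the 250-nt hairpin of csi-miRN05, a predicted miRNA that is assigned to MIR171_1 and lies on chromosome 4 at positions 3390260 to 3390509 of the minus strand in the Citrus sinensis genome (release not given in the sources used here). Reads of csi-miR171a can therefore come from both hairpins and cannot be told apart by sequence. The counted strand of csi-miRN05 lies on the 5′ arm, opposite csi-miR171a.
csi-miRN05: cGAUAUUGgugagguucaauc

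A target site is shown to relate these strands to the family's usual targets. The degradome target table of the study pairs csi-miR171a with orange1.1t00199 and orange1.1t00200, both annotated as Scarecrow-like protein 6, and the site of 20 bases is the same in both. Its capitals mark the stretch opposite the seed of csi-miR171a.
Scarecrow-like protein 6 site: gggatattggcgCGGCTCAa
csi-miR171a can form 19 Watson-Crick pairs with its 20 bases. The 3 bases just upstream of csi-miR171a in its hairpin would pair with the next 3 bases of both transcripts as well. csi-miR171b, aligned without gaps to the same stretch, reached 15 pairs over its 21 bases. The site was taken from the pairs listed for csi-miR171a, so the closer pairing of csi-miR171a follows from that choice. Targets of csi-miR171b and csi-miR479 were not examined here. csi-miR479 reached 9 complementary bases of 22 but was identical to the transcript at 16 of 22, so this strand reads like the site and not like its complement.

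The 18 libraries held between 77255 and 771522 listed miRNA reads. The lowest total belonged to Pt pH 8.0 replicate 1, and the next lowest was 254842. A floor of 3 reads corresponded to 3.89 to 38.83 CPM before TMM scaling. Low-count filtering kept 96 of the 100 miRNAs, the 3 members and csi-miRN05 among them. CPM are the reads of a miRNA as counts per 1e6 listed reads of its library, and all levels below are further scaled by TMM factors. They compare molecules without a length term but do carry any ligation preference of the library kit for single sequences. The tables used here hold miRNAs only. The study also sequenced root transcriptomes, but these were not used, and root marker genes were not checked. Reads were counted against Citrus sinensis sequences, and whether Pt or Cj carry base differences in these hairpins was not tested.

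csi-miR479 was the abundant member, and its level was lower in every Pt library than in every Cj library. In rising order of pH (6.5, 8.0, 9.5) it averaged 3787 ± 648, 2037 ± 206 and 552 ± 85 CPM in Pt, and 10367 ± 571, 12829 ± 854 and 6745 ± 800 CPM in Cj (SD, n = 3 each). By mean level it ranked 25th, 34th and 45th of 100 miRNAs in Pt and 19th, 18th and 25th in Cj. Separate rootstocks were common within single pH values, where Pt and Cj ranges were apart for 70.8%, 65.6% and 65.6% of tested miRNAs along these pH steps. The share of miRNAs with all Pt libraries apart from all Cj libraries over the 3 pH values was not counted. csi-miR171a averaged 392 ± 65.9, 288 ± 30.5 and 155 ± 47.9 CPM in Pt along the same pH steps, and 251 ± 9.99, 214 ± 9.55 and 175 ± 24.5 CPM in Cj. csi-miR171b was the rarest, at 39.4 ± 17.3, 14.2 ± 2.76 and 4.26 ± 3.78 CPM in Pt and 116 ± 6.92, 76.6 ± 9.66 and 39.1 ± 3.35 CPM in Cj. The Pt means at pH 8.0 and 9.5 rest on 19 and 7 reads of csi-miR171b in all.

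**Figure D1:**
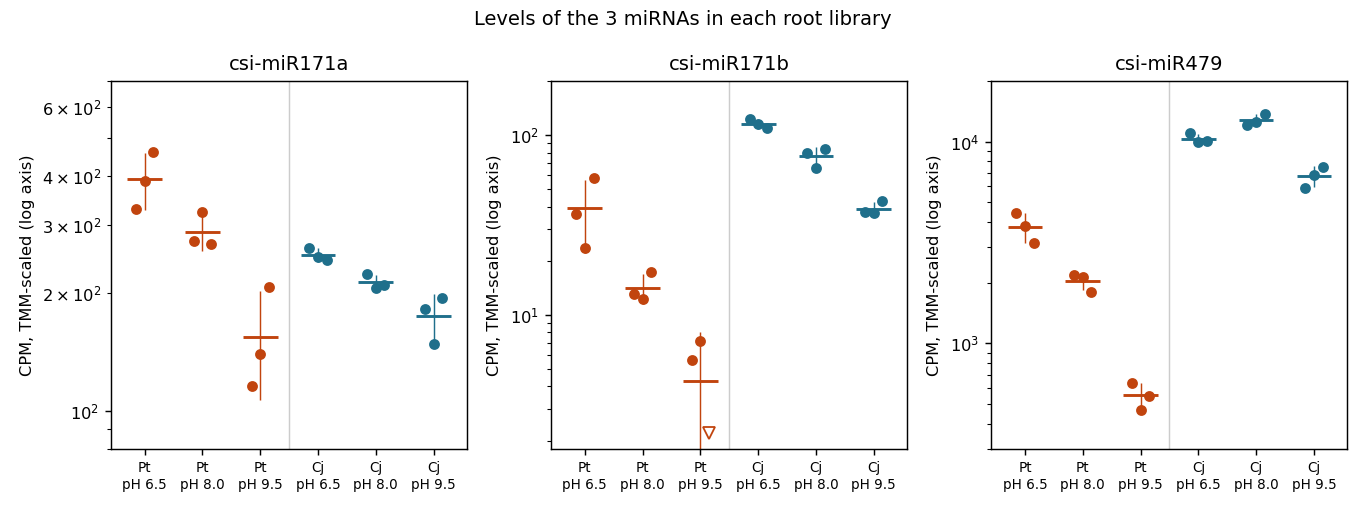
Level of each miRNA in each library as TMM-scaled CPM on a log axis, with Pt groups in orange on the left and Cj groups in blue on the right of each panel. Dots are libraries, horizontal lines are group means and vertical lines are the SD (n = 3). The open triangle in the csi-miR171b panel marks Pt pH 9.5 replicate 3, which had 0 reads. All 9 Pt libraries lie below all 9 Cj libraries for csi-miR479, from 469 to 4430 CPM in Pt against 5901 to 13793 CPM in Cj. Within single pH values, Pt and Cj ranges were apart for 65.6% to 70.8% of tested miRNAs. The share with all 9 Pt apart from all 9 Cj libraries was not counted.

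All 3 members were lower in Pt roots at pH 9.5 than at pH 6.5. csi-miR479 had 639, 469 and 548 CPM at pH 9.5, against 4430, 3798 and 3134 CPM at pH 6.5. The groups did not overlap, as for 18.8% of tested miRNAs on the lower side, and even the lowest library at pH 6.5 stood far above the highest at pH 9.5. The log2 fold change was -2.78 ± 0.18 (SE; quasi-likelihood test in edgeR, adjusted p = 1.78e-12). The level was 6.86-fold lower, and only 2 of the 96 tested miRNAs had a lower log2 fold change. csi-miR171b, on the other arm of the same hairpin, had 3, 4 and 0 reads at pH 9.5, against 17, 15 and 36 reads at pH 6.5. As CPM these were 5.59, 7.19 and 0, against 36.5, 23.7 and 57.9. The library with 0 reads allows up to 3 reads. The log2 fold change was -2.95 ± 0.52 (edgeR adjusted p = 5.24e-05).

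csi-miR171a, for which the Scarecrow-like site is shown, had 116, 140 and 208 CPM in Pt at pH 9.5, against 329, 388 and 460 CPM at pH 6.5. The libraries of both groups were apart, with a smaller gap than for csi-miR479. Its log2 fold change was -1.36 ± 0.23 (edgeR adjusted p = 3.8e-05). Of all 96 miRNAs, 13.5% were called lower in this comparison and 16.7% higher, and the median log2 fold change over all of them was 0.07. The 3 of 3 members called lower are not counted as 3 separate genes, since 1 deposited hairpin holds both csi-miR479 and csi-miR171b. csi-miRN05, predicted and of the same family as csi-miR171a, was not called (-0.71 ± 0.59, edgeR adjusted p = 0.391). In whole roots, fewer cells of a type and less RNA per cell cannot be told apart.

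At pH 8.0 the change in Pt was smaller and did not reach every member. csi-miR479 had 2182, 2128 and 1800 CPM at pH 8.0, all below the 3 libraries at pH 6.5 given above. Its log2 fold change was -0.90 ± 0.17 (edgeR adjusted p = 0.000401). csi-miR171b had 1, 7 and 11 reads at pH 8.0 and fell by 1.41 on the log2 scale (SE 0.44, edgeR adjusted p = 0.0417). That call ended with the replicate block (adjusted p = 0.0511), in a fit over the groups compared only (adjusted p = 0.0515), and without Pt pH 6.5 replicate 3 or any 1 of the 3 pH 8.0 libraries (log2 fold change -0.99 to -1.64, edgeR adjusted p 0.0866 to 0.32). csi-miR171a had 273, 323 and 268 CPM at pH 8.0, also below every library at pH 6.5, with a log2 fold change of -0.44 ± 0.23 that was not called (edgeR adjusted p = 0.35). It was called with library sizes from the TPM totals (-0.70, adjusted p = 0.0419) and without the 5 most abundant miRNAs (-0.66, adjusted p = 0.0459). So 2 of 3 members were called lower, both held by 1 deposited hairpin, against 4.17% of all tested miRNAs. Ranges of the 2 groups were apart on the lower side for 9.38% of tested miRNAs and for 3 of 3 members.

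Between pH 9.5 and pH 8.0 in Pt, csi-miR479 and csi-miR171a were lower at pH 9.5. The log2 fold change of csi-miR479 was -1.88 ± 0.18 (edgeR adjusted p = 7.69e-09), and 1 tested miRNA had a lower value. csi-miR171a had -0.93 ± 0.24 (edgeR adjusted p = 0.00733), a call that was lost without Pt pH 8.0 replicate 2 (-0.80, adjusted p = 0.0882) or without Pt pH 9.5 replicate 1 (-0.69, adjusted p = 0.0715). For csi-miR171b the value was -1.54 ± 0.64 and was not called (edgeR adjusted p = 0.106). With 2 of 3 members lower, the share over all tested miRNAs was 11.5%.

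**Figure D2:**
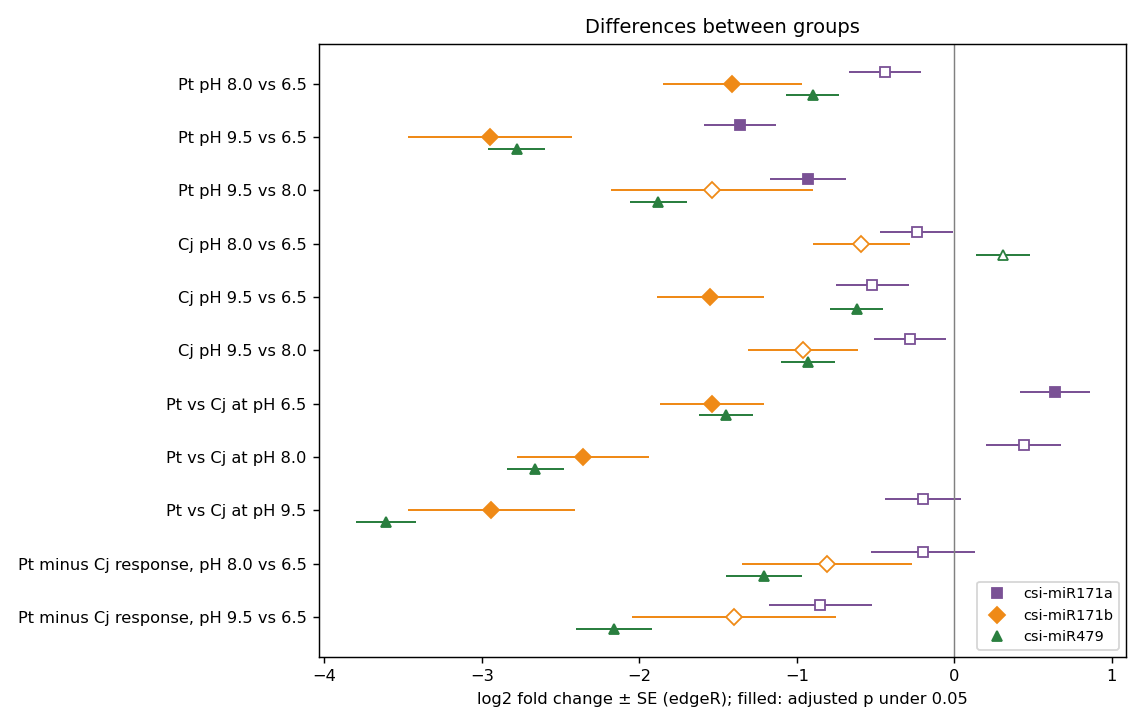
Log2 fold change of each miRNA in each comparison, with the SE from edgeR as horizontal bars, where filled symbols mark an adjusted p under 0.05. The lower group of rows gives the Pt response minus the Cj response. For csi-miR479 the points are at -0.90 and -2.78 in the Pt rows against pH 6.5, and at 0.31 and -0.62 in the Cj rows against pH 6.5.

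In Cj roots both strands of the MIR171_2 hairpin were lower at pH 9.5 than at pH 6.5, and csi-miR171a was not called. csi-miR479 had 5901, 6844 and 7491 CPM at pH 9.5, against 11027, 10022 and 10052 CPM at pH 6.5. The groups were apart, and the log2 fold change was -0.62 ± 0.17 (edgeR adjusted p = 0.00495). csi-miR171b had 37.4, 36.9 and 42.9 CPM at pH 9.5, against 123, 115 and 109 CPM at pH 6.5, and fell by 1.55 on the log2 scale (SE 0.34, edgeR adjusted p = 0.000642). csi-miR171a had 182, 148 and 195 CPM at pH 9.5, against 262, 248 and 243 CPM at pH 6.5. Its log2 fold change of -0.52 ± 0.23 was not called (edgeR adjusted p = 0.0809), except in the fit over both groups alone (adjusted p = 0.0349). So 2 of 3 members were called lower in Cj, both held by 1 deposited hairpin, where 15.6% of all tested miRNAs were. The ranges were apart on the lower side for all 3 members, which 29.2% of tested miRNAs showed.

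At pH 8.0 the 2 strands of the MIR171_2 hairpin lay on opposite sides of their pH 6.5 levels in Cj, and neither was called. csi-miR479 had 12172, 12521 and 13793 CPM at pH 8.0, above every Cj library at pH 6.5, at a log2 difference of 0.31 ± 0.17 (edgeR adjusted p = 0.151). It was called higher with DESeq2 size factors (0.43, adjusted p = 0.0348), without the 5 most abundant miRNAs (0.41, adjusted p = 0.0285), in the fit over these groups alone (0.45, adjusted p = 0.00886) and by the DESeq2 Wald test (0.43, adjusted p = 0.025). csi-miR171b had 79.9, 65.7 and 84.2 CPM at pH 8.0, below every library at pH 6.5, at a log2 difference of -0.59 ± 0.31 (edgeR adjusted p = 0.142). The value of csi-miR171a was -0.24 ± 0.23 (edgeR adjusted p = 0.455). Thus 0 of 3 members were called by edgeR at these settings, against 36.5% of all tested miRNAs in either direction, and all 3 had an unadjusted p over 0.05, from 0.0674 to 0.313. Groups that do not overlap carry little here, since the ranges were apart for 53.1% of tested miRNAs.

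Between pH 9.5 and pH 8.0 in Cj, csi-miR479 had a log2 fold change of -0.93 ± 0.17 (adjusted p = 0.000806 by edgeR) and was lower. It was the 1 member of 3 called, against 6.25% of all tested miRNAs called lower. The value of csi-miR171b was -0.96 ± 0.35 (edgeR adjusted p = 0.0815), and only 1 tested miRNA had a lower value. That change was called under 4 other settings and without Cj pH 8.0 replicate 2 (edgeR or DESeq2 adjusted p 0.0078 to 0.0492). csi-miR171a had -0.28 ± 0.23 (edgeR adjusted p = 0.474).

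The response of csi-miR479 differed between the rootstocks. The Pt log2 change minus the Cj log2 change was -1.21 ± 0.24 at pH 8.0 (SE; edgeR test of the difference, adjusted p = 0.00127) and -2.16 ± 0.24 at pH 9.5 (edgeR adjusted p = 1.05e-07). At pH 9.5 only 2 of the 96 miRNAs had a more negative difference. Both calls held under every alternative run, with differences from -1.50 to -1.17 at pH 8.0 and from -2.37 to -2.07 at pH 9.5. For csi-miR171b the difference at pH 9.5 was -1.40 ± 0.65 and was not called (edgeR adjusted p = 0.125), and at pH 8.0 it was -0.81 ± 0.54 (edgeR adjusted p = 0.353). For csi-miR171a it was -0.85 ± 0.33 at pH 9.5 (edgeR adjusted p = 0.0688) and -0.20 ± 0.33 at pH 8.0 (edgeR adjusted p = 0.768). The csi-miR171a difference at pH 9.5 was called with library sizes from the TPM totals (-1.09, adjusted p = 0.0213), without the 5 most abundant miRNAs (-1.10, adjusted p = 0.0129), without Pt pH 6.5 replicate 1 (adjusted p = 0.0277) and without Pt pH 9.5 replicate 3 (-1.07, adjusted p = 0.0305). Of all tested miRNAs, 4.17% were called with a more negative response in Pt at pH 8.0 and 12.5% at pH 9.5.

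Both strands of the MIR171_2 hairpin were lower in Pt than in Cj at each pH. At pH 6.5 csi-miR479 averaged 3787 CPM in Pt and 10367 CPM in Cj, which gave -1.45 ± 0.17 on the log2 scale (edgeR adjusted p = 3.11e-08). At pH 8.0 it averaged 2037 CPM in Pt and 12829 CPM in Cj (-2.66 ± 0.18, edgeR adjusted p = 8.92e-13). At pH 9.5 it averaged 552 CPM in Pt and 6745 CPM in Cj (-3.61 ± 0.19, edgeR adjusted p = 3.76e-15), a 12.2-fold lower level. For csi-miR171b the log2 fold changes were -1.54 ± 0.33, -2.36 ± 0.42 and -2.94 ± 0.53 along the same pH steps (edgeR adjusted p 0.000168, 2.82e-05 and 3.05e-05). In reads summed over the 3 libraries of a group, csi-miR171b had 68, 19 and 7 in Pt and 157, 110 and 54 in Cj along these pH steps.

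csi-miR171a was not called lower in Pt at any pH with TMM scaling. At pH 6.5 it had 329, 388 and 460 CPM in Pt, against 262, 248 and 243 CPM in Cj, and was higher in Pt, with a difference of 0.64 ± 0.22 on the log2 scale (edgeR adjusted p = 0.0136). That call ended with library sizes from the TPM totals (0.47, adjusted p = 0.0799), without Pt pH 6.5 replicate 3 (0.51, adjusted p = 0.0727) and without Cj pH 6.5 replicate 3 (0.62, adjusted p = 0.0548). At pH 8.0 the log2 fold change was 0.44 ± 0.24 (edgeR adjusted p = 0.104), and it turned to -0.03 with library sizes from the TPM totals. At pH 9.5 Pt had 116, 140 and 208 CPM, against 182, 148 and 195 CPM in Cj. These ranges overlapped, and the log2 fold change was -0.20 ± 0.24 (edgeR adjusted p = 0.438), turning to 0.02 without Pt pH 9.5 replicate 1 and called at -0.62 with library sizes from the TPM totals (adjusted p = 0.0331). Members called lower in Pt numbered 2 of 3 at each pH, against 34.4%, 27.1% and 30.2% of all tested miRNAs in rising order of pH. These were csi-miR479 and csi-miR171b, both held by 1 deposited hairpin. The 1 member called higher at pH 6.5 compares with 29.2% of all tested. With library sizes from the TPM totals the median over all miRNAs shifted by -0.19, -0.47 and -0.40 in these comparisons.

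Ratios within a library do not depend on library size and set the strands against each other directly. The log2 ratio of csi-miR171a to csi-miR479 reads, with 0.5 reads added to both, was -3.27 ± 0.49, -2.81 ± 0.14 and -1.86 ± 0.55 in Pt in rising order of pH, and -5.36 ± 0.03, -5.90 ± 0.14 and -5.26 ± 0.26 in Cj (SD, n = 3 each). All 9 Pt libraries, from -3.75 to -1.39, were above all 9 Cj libraries, from -6.03 to -5.01. How many other pairs of miRNAs would stand apart in this way was not counted. Within single pH values, 65.6% to 70.8% of tested miRNAs had Pt and Cj ranges apart. The level of csi-miR479 alone differed between Pt and Cj by -1.45, -2.66 and -3.61 on the log2 scale along the pH steps. That of csi-miR171a differed by 0.64, 0.44 and -0.20. Averaged over the 3 pH values, the ratio was higher in Pt by 2.86 on the log2 scale, 7.26-fold (two-sided exact permutation test within pH, 8000 arrangements, p = 0.00025, the smallest it can give). In summed reads, csi-miR479 outnumbered csi-miR171a 9.37-fold in Pt at pH 6.5 and 3.76-fold at pH 9.5, and 41.2-fold and 38.6-fold in Cj at those values.

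Within Pt the ratio was compared between pH values. The 3 libraries at pH 9.5 had log2 ratios of -2.46, -1.74 and -1.39, against -3.75, -3.29 and -2.77 at pH 6.5. The groups were apart, with a difference of 1.41 (exact permutation test, p = 0.1, the smallest that 3 libraries against 3 allow). In Cj the difference was 0.10 (exact permutation test, p = 0.7), and it turned to -0.03 without Cj pH 9.5 replicate 1. Whether both shifts differ from each other was not tested on the ratio.

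**Figure D3:**
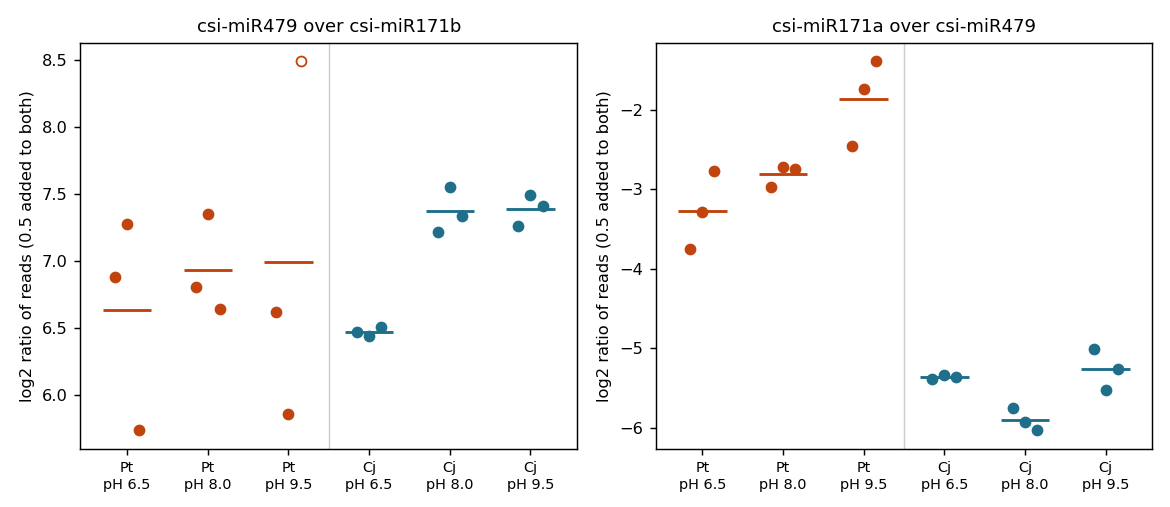
Log2 ratio of csi-miR479 to csi-miR171b reads (left) and of csi-miR171a to csi-miR479 reads (right) in each library, with 0.5 reads added to both counts, Pt in orange and Cj in blue. Dots are libraries, lines are group means, and the open dot is Pt pH 9.5 replicate 3 with 0 reads of csi-miR171b. In the left panel Pt and Cj overlap, and in the right panel all Pt dots lie above all Cj dots. How many other pairs of miRNAs would stand apart in this way was not counted.

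The strand balance of the MIR171_2 hairpin is the share of csi-miR479 among reads of both strands. csi-miR479 made up 98.95%, 99.25% and 99.11% of the reads of both strands in Pt in rising order of pH, and 98.90%, 99.41% and 99.42% in Cj. The exact 95% binomial intervals, which cover counting error only, were 98.67 to 99.18%, 98.84 to 99.55% and 98.18 to 99.64% in Pt. In Cj they were 98.71 to 99.06%, 99.29 to 99.52% and 99.25 to 99.57%. The log2 ratio of csi-miR479 to csi-miR171b averaged 6.63 ± 0.80, 6.93 ± 0.37 and 6.99 ± 1.35 in Pt and 6.47 ± 0.03, 7.37 ± 0.17 and 7.39 ± 0.12 in Cj along the pH steps. Over the 3 pH values Pt differed from Cj by -0.23 (two-sided exact permutation test within pH, p = 0.471). The differences within pH were 0.16, -0.44 and -0.40 in rising order of pH, so the sign was not the same at each step. The value was -0.48 without Pt pH 9.5 replicate 3 (p = 0.0737 by the same exact test) and -0.04 without Pt pH 9.5 replicate 2, and it was -0.43 with 1 read added to each count.

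Within Cj the 3 libraries at pH 9.5 had log2 ratios of 7.26, 7.49 and 7.41, against 6.47, 6.44 and 6.51 at pH 6.5. The libraries were apart, and the ratio was 1.89-fold higher at pH 9.5 (exact permutation test, p = 0.1, the smallest possible). Within Pt the libraries at pH 9.5 had 6.62, 5.86 and 8.49, against 6.88, 7.28 and 5.74 at pH 6.5. They overlapped, with a difference of 0.36 (exact permutation test, p = 0.8). The value 8.49 comes from the library with 0 reads of csi-miR171b and rests on the 0.5 reads added. Without that library the difference was -0.39, without Pt pH 6.5 replicate 3 it was -0.09, and it was -0.05 with 1 read added.

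A total of 13 pairs of counted miRNAs lay on opposite arms of 1 deposited hairpin, csi-miR479 with csi-miR171b among them. Between the 6 groups the log2 ratio of their summed reads spanned 0.94, and 8 of the other 12 pairs had a narrower span, the 12 running from 0.40 to 9.70. The 9.70 is that of csi-miR396b with csi-miRN32, which had 0 reads of csi-miRN32 in Cj at pH 6.5 and 1 at pH 9.5, so it is set by the 0.5 reads added before the ratio, and the next widest span was 1.63. csi-miR393, which acts on auxin receptors, and its partner csi-miRN18 ranged from 82.39 to 93.63% on the 5′ arm. csi-miR390, which starts the making of tasiRNAs from TAS3 transcripts, and csi-miRN19 ranged from 81.65 to 87.27%. For csi-miR162-5p with csi-miR162-3p, whose family acts on DICER-LIKE 1, the 5′ arm held 3.975 to 6.816%. Several pairs share a strand, so the 13 are not separate hairpins. csi-miR166e-5p had almost the same counts with csi-miR166a as with csi-miR166e-3p. csi-miR535 had the same counts with csi-miRN07 as with csi-miRN08. These pairs are all among the 8 with a narrower span, so that count holds repeats.

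csi-miRN05, opposite csi-miR171a in the second MIR171_1 hairpin, was rare in all groups. It averaged 36.4 ± 13.8, 32.2 ± 12.9 and 24.2 ± 18.7 CPM in Pt and 12.2 ± 10.6, 32 ± 19.3 and 23.9 ± 11.9 CPM in Cj in rising order of pH. At pH 9.5 against pH 6.5 its log2 fold change was -0.71 ± 0.59 in Pt (edgeR adjusted p = 0.391) and 0.97 ± 0.72 in Cj (edgeR adjusted p = 0.284). In Pt against Cj at pH 6.5 it was higher, by 1.59 ± 0.65 (edgeR adjusted p = 0.0358), with 62 reads in Pt and 16 in Cj. csi-miRN05 made up 4.482 to 12.61% of the reads of this pair in the 6 groups. How many of the csi-miR171a reads came from this hairpin cannot be told apart from those of the other.

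The profiles of csi-miR479 and csi-miR171b over the 6 groups were close to each other. Likeness was taken as the root mean square difference between mean log2 CPM profiles, each centred on its own mean over the 6 groups, so a small value means a like shape whatever the level. csi-miR171b was the second nearest of all tested miRNAs to csi-miR479, at 0.43, behind csi-miR473 of the MIR477 family at 0.42. The third was csi-miRN43, a predicted MIR160 member, at 0.69, and the median over all tested miRNAs was 1.70. For csi-miR171b the nearest were csi-miRN43 at 0.38, csi-miR479 at 0.43 and csi-miR473 at 0.52. csi-miR171a stood 33rd from csi-miR479, at 1.50, and 27th from csi-miR171b, at 1.24 with a median of 1.46, so it was nearer to both than the median miRNA. Its own nearest, csi-miRN26, csi-miRN40 and csi-miR472, were each at 0.36 with a median of 0.69, and from it csi-miR171b stood 74th and csi-miR479 79th. These values describe 6 group means, and no test was made of them.

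**Figure D4:**
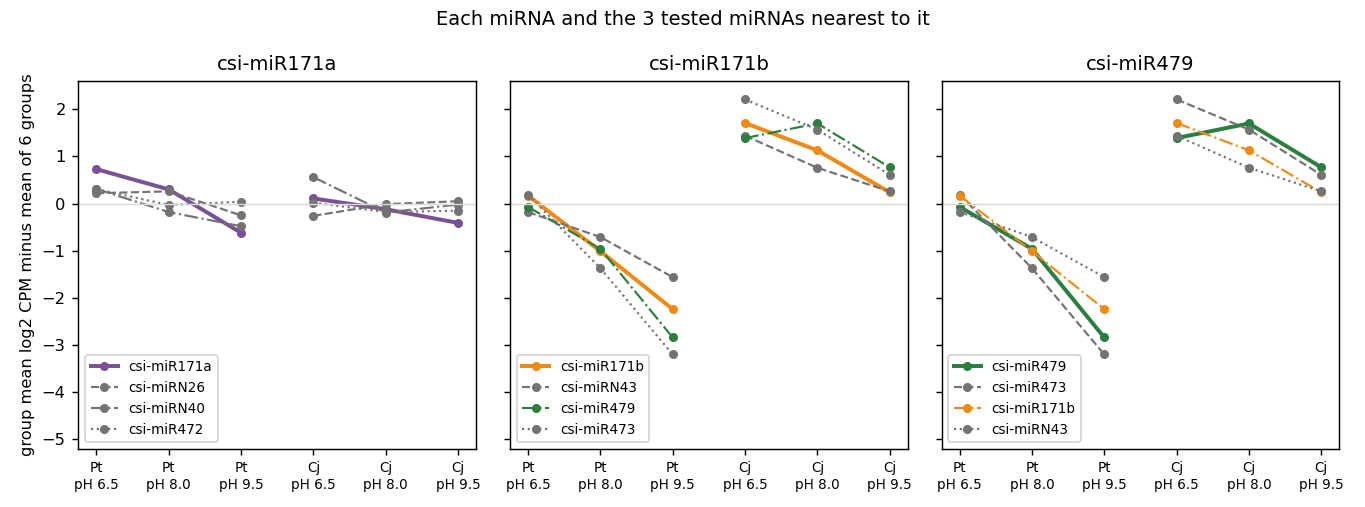
Group mean log2 CPM of each miRNA minus its mean over the 6 groups (thick line) with the 3 tested miRNAs of smallest root mean square difference (thin lines). Pt groups are on the left and Cj groups on the right of each panel. csi-miR479 lies at -0.07, -0.96 and -2.84 in Pt and at 1.39, 1.70 and 0.77 in Cj in rising order of pH, close to csi-miR473 and csi-miR171b. csi-miR171a stays between -0.62 and 0.73.

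The other miRNA families that act on transcription factors are given here by their counts beside those of all tested miRNAs. The list held 19 tested miRNAs of MIR156, MIR159, MIR160, MIR164, MIR166, MIR167, MIR172, MIR319, MIR396 and MIR535 type. In Pt at pH 9.5 against pH 6.5, 2 were called higher and 2 lower, where 16.7% of all tested miRNAs were called higher and 13.5% lower, and the list's median log2 fold change was 0.23 beside 0.07. In Cj 3 were called higher and 4 lower, where 12.5% of all were called higher and 15.6% lower, with a median of 0.23 beside 0.04. At pH 8.0 against pH 6.5, 0 of 19 were called in Pt, where 9.38% of all tested miRNAs were called in either direction. In Cj 1 was called higher and 8 lower, where 11.5% of all were called higher and 25% lower. In the Pt comparison at pH 8.0, 2 of the 19 had an unadjusted edgeR p under 0.05, and DESeq2 called 0. For the difference in response at pH 9.5, 3 were called higher and 3 lower, where 6.25% of all were called higher and 12.5% lower. Nothing particular to the list is read from these counts.

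Within that list csi-miR166c and csi-miRN43 were called at pH 9.5 in both rootstocks. csi-miR166c, whose family acts on HD-ZIP III transcription factors, was higher at pH 9.5 with log2 fold changes of 0.45 ± 0.15 in Pt (edgeR adjusted p = 0.0201) and 0.45 ± 0.15 in Cj (edgeR adjusted p = 0.021). csi-miR166a, csi-miR166b, csi-miR166d and csi-miR166e-3p, also in the list, were not called at pH 9.5 against pH 6.5 in either rootstock. csi-miRN43, of the MIR160 family that acts on auxin response factors, averaged 472 ± 33 CPM at pH 9.5 and 1241 ± 134 CPM at pH 6.5 in Pt, and 1713 ± 412 CPM at pH 9.5 and 3824 ± 337 CPM at pH 6.5 in Cj (SD, n = 3 each). It was lower at pH 9.5 with log2 fold changes of -1.40 ± 0.20 in Pt (edgeR adjusted p = 4.46e-06) and -1.16 ± 0.20 in Cj (edgeR adjusted p = 4.2e-05). csi-miRN45, for which the paper also lists auxin response factor targets, was called lower at pH 9.5 in Cj and not in Pt.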

How the data were processed

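Read counts and TPM values of 49 known and 51 predicted miRNAs in 18 root libraries were taken as deposited. Per the labels and the study's methods, the authors made NEBNext small RNA libraries, removed structural and repeat RNA with Bowtie, matched reads to miRBase and the Citrus sinensis genome, predicted further miRNAs with miRDeep2 and compared groups with DESeq 1.10.1. The deposited counts are raw reads per miRNA. The authors computed TPM from each count and the total of mapped reads, of which the listed miRNAs hold 61.8 to 83.1%. From the predicted sheet 3 repeat lines of 1 miRNA and 1 line without values were left out. Neither the 2 pooled degradome libraries nor any mRNA data were analysed here.

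Counts were fitted with edgeR 4.0.16 in R 4.3.3 in 1 quasi-likelihood fit of 6 group means, with library sizes equal to listed reads, TMM factors, and filterByExpr (minimum count 10, minimum total 15). P-values were adjusted by Benjamini-Hochberg over the 96 miRNAs of a comparison and called under 0.05. SE is the log2 fold change over the root of its F statistic. Ratios were tested by two-sided exact permutation tests. Hairpins were folded with ViennaRNA 2.7.2. An arm pair needed at least 10 bases paired with each other. Scripts were tested on simulated data. None of the 18 replicate pairs agreed within sampling noise (chi-square). The labels do not say whether pools came from separate vessels, so p-values measure the spread between these pools. Alternatives were DESeq2 1.42.0 size factors and its Wald test, other library sizes, no filter, fewer groups, a replicate block, another pseudocount, TPM ratios and leaving out each library. The members and lists were chosen with earlier results of these data known. Members were described whatever their values, and other miRNAs were named by sequence, by likeness of profile (the 3 nearest) or, from the transcription factor list, when called at pH 9.5 in both rootstocks.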

Additional observations from a re-analysis of the deposited data

Results flagged for a closer look

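The response of csi-miR479 to alkaline solution differed between the rootstocks by the edgeR test of the difference itself. The Pt log2 change minus the Cj log2 change was -1.21 at pH 8.0 against pH 6.5 and -2.16 at pH 9.5 against pH 6.5. All 3 Pt libraries were below the pH 6.5 libraries at both higher pH values. All 3 Cj libraries were above the pH 6.5 libraries at pH 8.0 and below them at pH 9.5. The Cj difference at pH 8.0 was not called (0.31, edgeR adjusted p = 0.151). Against pH 6.5, ranges were apart for 53.1% of tested miRNAs at pH 8.0 and 52.1% at pH 9.5 in Cj. In Pt these shares were 15.6% and 39.6%. Groups of 3 libraries are too small for the check of single libraries that stand apart. csi-miR171b, on the other arm of the csi-miR479 hairpin, had differences of the same sign that were not called.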

How the results depend on the processing

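For csi-miR479, 151 of 155 alternative values kept direction and side of the threshold, and the other 4 were the calls in Cj at pH 8.0 given in the report (0.43, 0.41, 0.45 and 0.43). For csi-miR171b, 143 of 154 did so and for csi-miR171a 140 of 155. The fit over the groups compared only gave no value for csi-miR171b in Pt at pH 9.5 against pH 8.0, where it failed the filter.

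Of the changed calls of csi-miR171b, those at pH 8.0 in Pt were -1.47 in the fit over the groups compared only and -0.99 to -1.64 over left-out libraries. At pH 9.5 against pH 8.0 in Cj they were -1.11 with DESeq2 size factors, -1.05 without the 5 most abundant miRNAs, -1.16 over the compared groups and -1.12 by the DESeq2 Wald test, with -1.18 to -0.97 over left-out libraries. Those of csi-miR171a were, with library sizes from the TPM totals, -0.70 in Pt at pH 8.0, 0.47, -0.03 and -0.62 in Pt against Cj in rising order of pH, and -1.09 for the difference in response at pH 9.5. Without the 5 most abundant miRNAs they were -0.66 in Pt at pH 8.0 and -1.10 for that difference, and over the compared groups -0.54 in Cj at pH 9.5. Over left-out libraries csi-miR171a ranged from -1.13 to -0.69 in Pt at pH 9.5 against pH 8.0, from 0.51 to 0.81 and from -0.43 to 0.02 in Pt against Cj at pH 6.5 and 9.5, and from -1.07 to -0.62 for the difference in response at pH 9.5.

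Same-numbered libraries did not deviate together throughout (r -0.29 to 0.44, with 0 of 9 comparisons above 0.1 in every pair). With 3 libraries per group this cannot tell whether they share a batch or vessel, and the labels do not say. The replicate block changed 1 of 33 member calls, that of csi-miR171b in Pt at pH 8.0 (-1.39).

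Counts of miRNAs called moved by over 1.5 times in 5 comparisons. In Pt at pH 8.0 the 9 became 22 with the TPM totals and 18 without the 5 most abundant miRNAs, and the 10 with a response difference at pH 8.0 became 17 and 16. Over left-out libraries the 17 in Pt at pH 9.5 against pH 8.0 ranged from 8 to 14, the 35 in Cj at pH 8.0 from 19 to 38, and the response differences at pH 8.0 and 9.5 from 5 to 15 and from 13 to 29. The ratio of csi-miR479 to csi-miR171b in Pt at pH 9.5 turned to -0.05 with 1 read added and -0.24 in TPM, and ranged from -0.39 to 0.92 over left-out libraries. That of csi-miR171a to csi-miR479 in Cj ranged from -0.03 to 0.23. The cause of these shifts was not tested. Depth limits csi-miR171b most, with 7 reads in Pt at pH 9.5.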
